A study of Mus musculus with 9 samples.

Results

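The genes described here are Myh3, Myh8, Myl4, Actc1, Tnnt2 and Ncam1, 6 of the 54532 genes counted in regenerating mouse tibialis anterior muscle. They were taken by symbol from the annotation of the Ensembl gene IDs, and all 6 were found, each under 1 ID. They were chosen by their levels in these same 9 libraries, so those levels and the fold changes made from them are given as a description, with no p-value for any of the 6. Where the number of them past a threshold is printed beside the share of all genes, nothing is read from it. Of the 6, 5 encode contractile proteins, whereas Ncam1 encodes a cell adhesion molecule and is grouped with them as another gene switched on in new fibres.

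After injury, satellite cells divide, differentiate and fuse into new fibres with central nuclei. Such fibres first build their sarcomeres from isoforms used in the embryo and the newborn, and exchange them for adult isoforms as they grow and receive nerve. Myh3 and Myh8 encode the embryonic and the perinatal myosin heavy chain, the motor of the thick filament. Myl4 encodes the embryonic alkali light chain, which binds the neck of the heavy chain. Actc1 and Tnnt2 encode the actin and the troponin T that adult heart keeps and that adult limb muscle largely replaces. Ncam1 sits on the surface of fusing myoblasts, young fibres and fibres without nerve contact, and also on neurons and Schwann cells.

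Each group held 3 libraries. Young PBS mice were 4 months old and old PBS mice 24 months old, and both received 3 intramuscular injections of phosphate-buffered saline after barium chloride injury. Old rMETRNL mice were also 24 months old and received 3 injections of recombinant Meteorin-like, a secreted protein of macrophages and muscle, after the same injury. The study's methods give the strain as C57/BL6J. No uninjured muscle was sequenced in these 9 libraries, so the adult starting level of each gene is not analysed here. The submitters describe a strained suspension of digested muscle taken on day 4, whereas the study's text describes RNA of whole muscle taken on day 8, and the values do not settle which holds. The time matters for genes that change from day to day in regeneration.

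The libraries held between 16238700 and 22522560 counted reads, at which 3 reads are worth 0.131 to 0.202 CPM, counts scaled to a library of 1000000 reads. The 6 genes were read far above that floor, with a lowest count of 328 for Ncam1 in old PBS 4. A pair of libraries stood apart in the results below, old PBS 3 and old PBS 4, which carry the replicate numbers given in the labels. Their factors from TMM, the scaling applied to all CPM here, were also the highest, 1.16 in old PBS 3, and the lowest, 0.827 in old PBS 4. RNA was measured in bulk, so fewer new fibres and less of a transcript in each new fibre cannot be told apart.

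The 6 genes do not form 1 locus. On GRCm38, Myh3 lies at chr11:67078300-67102291 and Myh8 at chr11:67277124-67308634, both on the plus strand within the cluster of skeletal myosin heavy chain genes, and Myl4 lies on the same chromosome at chr11:104550663-104595753. Actc1 lies at chr2:114047282-114053548 on the minus strand, Tnnt2 at chr1:135836354-135852260 on the plus strand and Ncam1 at chr9:49502136-49798925 on the minus strand. Because they rose and fell together across libraries, the sequence just before their start sites was searched for motifs of muscle promoters. RefSeq sequence of GRCm38.p6 was at hand for 5 of the 6, and the 250 bases before the start are shown for 4 of them that held a motif. The motifs searched on both strands were the E-box CANNTG, bound by myogenic factors such as MyoD and myogenin, its form CAGCTG, the TATA box TATAAA, the MCAT motif CATTCC, the CArG box of serum response factor and the MEF2 site. Capitals mark every match.
Myh3, chr11:67078050-67078299, plus strand: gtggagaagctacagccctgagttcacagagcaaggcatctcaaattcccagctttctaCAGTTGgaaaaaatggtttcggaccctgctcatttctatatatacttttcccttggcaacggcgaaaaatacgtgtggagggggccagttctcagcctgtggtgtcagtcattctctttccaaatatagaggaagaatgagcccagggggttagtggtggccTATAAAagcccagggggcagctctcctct
Myh8, chr11:67276874-67277123, plus strand: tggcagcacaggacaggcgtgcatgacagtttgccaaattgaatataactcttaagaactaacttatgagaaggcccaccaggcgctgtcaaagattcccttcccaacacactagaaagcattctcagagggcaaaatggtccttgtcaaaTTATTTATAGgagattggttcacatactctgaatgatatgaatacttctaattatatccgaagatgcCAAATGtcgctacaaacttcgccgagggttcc
Actc1, chr2:114052876-114053125, minus strand: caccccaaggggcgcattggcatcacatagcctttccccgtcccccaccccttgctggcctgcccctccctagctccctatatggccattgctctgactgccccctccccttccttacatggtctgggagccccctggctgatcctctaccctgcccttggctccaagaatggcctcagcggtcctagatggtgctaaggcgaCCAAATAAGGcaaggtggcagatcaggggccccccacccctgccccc
Tnnt2, chr1:135836084-135836333, plus strand: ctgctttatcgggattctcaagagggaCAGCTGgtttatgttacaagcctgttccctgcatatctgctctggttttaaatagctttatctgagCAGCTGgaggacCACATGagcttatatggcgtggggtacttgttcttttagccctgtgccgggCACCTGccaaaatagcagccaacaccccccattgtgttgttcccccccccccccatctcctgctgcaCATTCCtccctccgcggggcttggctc
The match to TATAAA began 29 bases before the start of Myh3. In Myh8 it was read on the other strand, 96 bases before the start, inside the match to MEF2. Starts are those of RefSeq, which for Actc1 lies inside the longer GENCODE gene given above and for Tnnt2 just before it. The CArG box of Actc1 began 47 bases before the RefSeq start. Tnnt2, whose first of 2 listed start sites is shown, held 4 E-boxes, of which 2 read CAGCTG, and a match to CATTCC 27 bases before the start. An E-box was found upstream of 3 of the 5 genes, Myh3, Myh8 and Tnnt2, and in 66.2% of all 32851 promoter windows. A CArG box was found in 1.47% of all windows, a MEF2 site in 2.92%, TATAAA in 12.4%, CATTCC in 12.6% and CAGCTG in 13.0%. The window of Myl4 held none of these motifs, and none was found in all 5 genes.

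Embryonic myosin, Myh3, spread most widely. It stood at 197, 343 and 329 CPM in young PBS 1, 2 and 3. In old PBS it stood at 264, 1258 and 55.5 CPM in libraries 2, 3 and 4. In old rMETRNL it stood at 158, 413 and 260 CPM in libraries 1, 2 and 3. Old PBS 3 was thus above every other library and old PBS 4 below every other library, so the old PBS group enclosed both other groups. Old PBS 3 held 22.7 times the Myh3 of old PBS 4 and 4.76 times that of old PBS 2.

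Perinatal myosin, Myh8, which follows Myh3 in development, showed the same order at its ends. The young PBS libraries held 389, 664 and 689 CPM. The old PBS libraries 2, 3 and 4 held 383, 1763 and 123 CPM. The old rMETRNL libraries held 476, 709 and 412 CPM. Young PBS and old rMETRNL covered nearly the same range, and old PBS 2 lay just under both. The difference between old PBS 3 and old PBS 4 was 14.3-fold.

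Myl4, the embryonic light chain, moved less. It was measured at 128, 141 and 152 CPM in young PBS, at 112, 382 and 94.8 CPM in old PBS 2, 3 and 4, and at 93.7, 166 and 130 CPM in old rMETRNL. Only old PBS 3 stood away from the rest, and old rMETRNL 1 was as low as old PBS 4. Old PBS 3 exceeded old PBS 4 by 4.03-fold.

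Tnnt2, the thin filament troponin T of embryonic muscle and heart, behaved like Myl4. It was measured at 49.5, 64.5 and 73.6 CPM in young PBS, at 52.4, 153.9 and 34.2 CPM in old PBS 2, 3 and 4, and at 34.1, 73.0 and 68.7 CPM in old rMETRNL. Here too old PBS 3 was alone above a common range and old rMETRNL 1 shared the lowest level with old PBS 4. The ratio of old PBS 3 to old PBS 4 was 4.50.

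Actc1, the cardiac actin used by new fibres, was the 1 gene of the 6 for which young PBS and old rMETRNL did not overlap. Young PBS held 1221, 946 and 991 CPM and old rMETRNL held 845, 873 and 801 CPM, so that every old rMETRNL library was below every young PBS library. Old PBS 2, 3 and 4 held 474, 1330 and 335 CPM. Both old PBS 2 and old PBS 4 were below all 6 libraries of the other groups, while old PBS 3 was above them all. Actc1 shares long stretches of coding sequence with Acta1, the adult actin, and how the authors' counting assigned reads that fit both is not given in the sources used here. Acta1 itself ran the other way, with its lowest level of the 9 libraries in old PBS 3, at 19755 CPM, and its highest in old PBS 4, at 29978 CPM, just outside the 23033 to 29874 CPM of the other groups.

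Ncam1, the adhesion molecule, had the lowest levels of the 6. It was measured at 27.8, 37.7 and 52.3 CPM in young PBS, at 42.0, 96.5 and 20.7 CPM in old PBS 2, 3 and 4, and at 22.2, 45.7 and 35.2 CPM in old rMETRNL. Old PBS 3 was again the highest and old PBS 4 the lowest, with a ratio of 4.67. An antisense gene covers 4.8% of the exon bases of Ncam1, and the strand setting of the counting is not given in the sources used here.

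**Figure D1:**
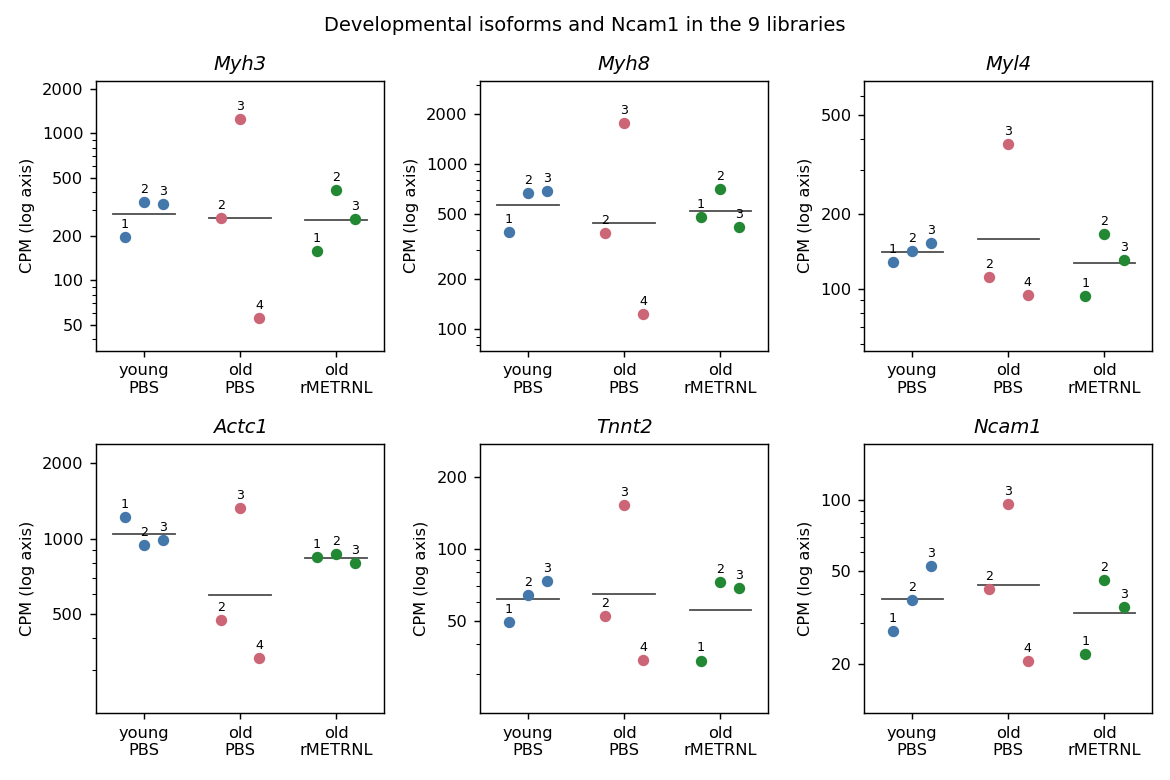
CPM of each gene (vertical log axis) in the 3 groups, 1 point per library with its replicate number, and the geometric mean of each group as a line. In every panel old PBS 3 is the highest point, from 96.5 CPM for Ncam1 to 1763 CPM for Myh8, and old PBS 4 is at or next to the lowest.

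Ncam1 is also a gene of nerve, and old PBS libraries held transcripts of neurons and glia that were at or near 0 elsewhere. Of 10 marker genes of neurons and glia, 3 were higher in old PBS than in young PBS by edgeR, each in 3 of 3 libraries, and 7 were by DESeq2. Gfap of astrocytes differed by 5.10 ± 0.57 on the log2 scale (adjusted p = 0.0405) and the glutamate transporter Slc1a2 by 6.15 ± 0.49 (adjusted p = 0.00707), while Mobp passed with an adjusted p of 0.0422. With 1 library left out at a time, the adjusted p of edgeR reached 0.312 for Gfap, 0.349 for Mobp and 0.0618 for Slc1a2, each without old PBS 2. Mobp, a myelin gene of the brain, had 0 reads in all 6 young PBS and old rMETRNL libraries, and 31.7, 11.5 and 41.9 CPM in old PBS 2, 3 and 4. Snap25, a synaptic gene that passed between old rMETRNL and old PBS (adjusted p = 0.0338 by edgeR), likewise had 0 reads in those 6 libraries and 14.9, 5.47 and 25.6 CPM in old PBS. Gfap, Slc1a2 and Mobp passed in that comparison too, so 4 of the 10 were lower in old rMETRNL by edgeR and 7 by DESeq2, and without old PBS 2 the adjusted p was 0.265 for Snap25, 0.149 for Gfap, 0.185 for Mobp and 0.0491 for Slc1a2 by edgeR. The summed level of the 10 genes ran from 287 to 359 CPM in young PBS, from 291 to 494 CPM in old PBS and from 274 to 335 CPM in old rMETRNL. Most of it was Camk2a and Thy1, and the other 8 genes summed to 7.55 to 8.07 CPM, 61.0 to 162 CPM and 8.95 to 9.97 CPM. Within old PBS, library 3 held the most Ncam1 and, at 61.0 CPM, the lowest sum of those 8, with 150 CPM in library 2 and 162 CPM in library 4. Single markers differed in order, since Mobp, Snap25 and Gfap were lowest in old PBS 3, Nrgn was highest there at 6.87 CPM and Slc1a2 lay between the others at 21.2 CPM. Their part in the level of Ncam1 was not tested. Of 8 Schwann cell markers 0 passed in any of the 3 comparisons by edgeR (2, 3 and 0 at an unadjusted p under 0.05). By DESeq2 S100b, which astrocytes also express, passed in both comparisons with old PBS (adjusted p = 0.00341 and 0.0279). The summed level of the 8 was 67.2 to 79.6 CPM in young PBS, 57.4 to 78.5 CPM in old PBS and 68.8 to 96.9 CPM in old rMETRNL.

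Adult heart also expresses Actc1, Tnnt2 and Myl4. Of 8 heart markers, the atrial light chain Myl7 had 0 reads in every library. Myh6, the cardiac myosin, reached at most 2.08 CPM, or 46 reads, in old rMETRNL 3, and Tnni3, the cardiac troponin I, at most 1.88 CPM, or 43 reads, in old PBS 3, while Actc1 held 335 to 1330 CPM. By edgeR 0 of the heart genes tested passed in any comparison (1, 1 and 0 at an unadjusted p under 0.05), and by DESeq2 Ryr2, a calcium channel that neurons also express, passed in both comparisons with old PBS at 2.09 CPM or less. The summed level of the 8 genes, 48.1 to 163.5 CPM in old PBS, 59.7 to 112 CPM in young PBS and 59.7 to 88.5 CPM in old rMETRNL, came mostly from Sln, which new fibres also express, and was highest in old PBS 3. Without Sln the other 7 summed to 3.24, 4.20 and 4.79 CPM in old PBS 2, 3 and 4, to 1.07 to 3.50 CPM in young PBS and to 1.13 to 2.90 CPM in old rMETRNL. Their part in the levels of Actc1, Tnnt2 and Myl4 was not tested.

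Within old PBS, the SD of log2 CPM over the 3 libraries was 2.25 for Myh3 and 1.92 for Myh8. It was 1.12 for Tnnt2, 1.11 for Ncam1, 1.10 for Myl4 and 1.03 for Actc1. The median over the 16124 genes kept for analysis was 0.205 in young PBS, 0.364 in old PBS and 0.180 in old rMETRNL. Only 12 genes had a larger SD in old PBS than Myh3, and 36 a larger one than Myh8. All 6 genes varied more in old PBS than in either other group, as did 68.5% of all genes kept. For the 6 genes the median SD was 0.368 in young PBS, 1.11 in old PBS and 0.469 in old rMETRNL. Of the 6, 4 were highest in old PBS 3 and lowest in old PBS 4, the exceptions being Myl4 and Tnnt2, whose lowest value in old rMETRNL 1 was almost equal to that in old PBS 4. Over all genes kept the same order held for 6.28%, and since the genes were chosen on these values nothing is read from the difference.

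**Figure D2:**
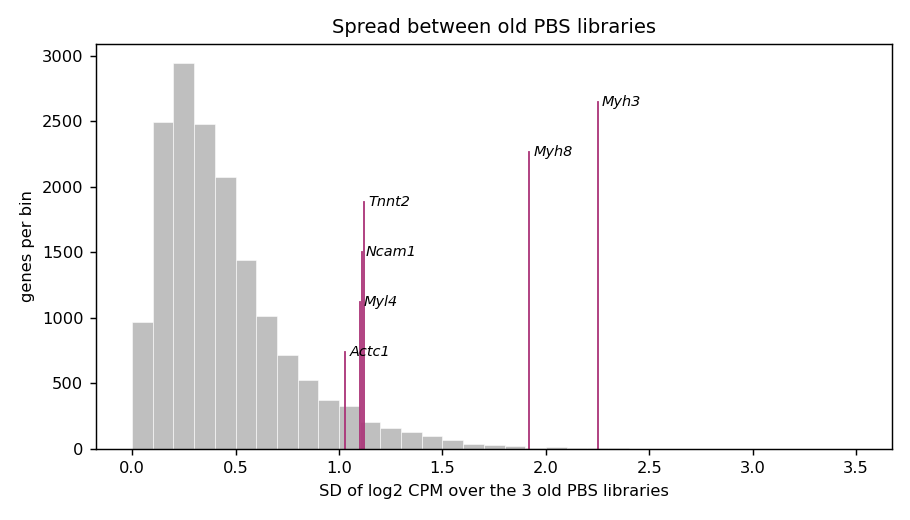
Number of genes (vertical axis, 16124 in all) by the SD of log2 CPM over the 3 old PBS libraries (horizontal axis), with the 6 genes marked by lines whose heights carry no value. Myh3, at 2.25, and Myh8, at 1.92, lie in the far right tail and the other 4 lie between 1.03 and 1.12.

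The comparison of old with young PBS asked how age changes the injured muscle. By the fitted fold change, which follows arithmetic means, 5 of the 6 genes were higher in old PBS and Actc1 was lower. By the mean of log2 CPM, Myh3 and Myh8 were instead lower in old PBS, at 8.05 against 8.13 for Myh3 and 8.77 against 9.14 for Myh8. Myh3 had a mean of 526 ± 643 CPM in old PBS and 289 ± 80.6 CPM in young PBS (SD, n = 3 each), a log2 fold change of 0.86 ± 0.86 (SE). Myh8 differed by 0.38 ± 0.78, Myl4 by 0.48 ± 0.48, Ncam1 by 0.44 ± 0.49, Tnnt2 by 0.36 ± 0.49 and Actc1 by -0.56 ± 0.47 on the log2 scale. Each difference was close to its standard error or smaller, and the groups overlapped for all 6. By edgeR 0 of the 6 passed an adjusted p of 0.05, where 0.0643% of 15560 genes passed, and by DESeq2 also 0, where 1.29% passed. At an unadjusted p under 0.05 there were 0 of the 6 by either tool, beside 920 of all 15560 genes by edgeR and 1302 genes by DESeq2. The groups did not overlap for 10.5% of all genes tested.

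These averages rested on old PBS 3. Without it the mean of old PBS fell below that of young PBS for all 6 genes. The log2 fold change became -0.86 ± 0.56 for Myh3, -1.20 ± 0.46 for Myh8 and -1.38 ± 0.23 for Actc1. It became -0.45 ± 0.16 for Myl4, -0.54 ± 0.24 for Tnnt2 and -0.33 ± 0.34 for Ncam1. The signs of 5 genes were thus set by 1 library, and that of Actc1 held with it and without it. In the fit without old PBS 3, 1 of the 6, Actc1, passed by edgeR, where 2.52% of all genes passed. At an unadjusted p under 0.05 there were 3 of the 6, beside 3322 of 15884 genes. Nothing is read from these counts. Without old PBS 4 the averages moved the other way, to 1.39 ± 0.54 for Myh3, 0.89 ± 0.54 for Myh8 and -0.22 ± 0.40 for Actc1.

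The comparison of old rMETRNL with old PBS asked what the injected protein changes in old muscle. It used the same old PBS libraries, so the 2 comparisons are not independent. Myh3 had a mean of 277 ± 128 CPM in old rMETRNL (SD, n = 3), a log2 fold change from old PBS of -0.93 ± 0.87. Myh8 differed by -0.51 ± 0.76, Myl4 by -0.60 ± 0.50, Ncam1 by -0.63 ± 0.49, Tnnt2 by -0.46 ± 0.52 and Actc1 by 0.23 ± 0.46. By the mean of log2 CPM, Myh8 was instead higher in old rMETRNL, at 9.02 against 8.77. Again each difference was close to its standard error or smaller, and the groups overlapped for all 6. Of the 6, 0 passed by edgeR (0.108% of all 15682 genes) and 0 by DESeq2 (1.92%), and 12.6% of all genes had groups that did not overlap. At an unadjusted p under 0.05 there were 0 of the 6 by either tool, beside 1266 genes by edgeR and 1747 by DESeq2. Without old PBS 3 all 6 genes were higher in old rMETRNL, Myh8 by 1.07 ± 0.41, Actc1 by 1.05 ± 0.21, Myh3 by 0.79 ± 0.55, Tnnt2 by 0.44 ± 0.31, Myl4 by 0.33 ± 0.23 and Ncam1 by 0.13 ± 0.33. In that fit 1 of the 6, Actc1, passed by edgeR, where 9.76% of all genes passed. At an unadjusted p under 0.05 it held 2 of the 6, beside 4410 of 15981 genes, and nothing is read from these counts. Without old PBS 4, Actc1 turned to -0.12 ± 0.39 and the other 5 stayed lower in old rMETRNL.

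**Figure D3:**
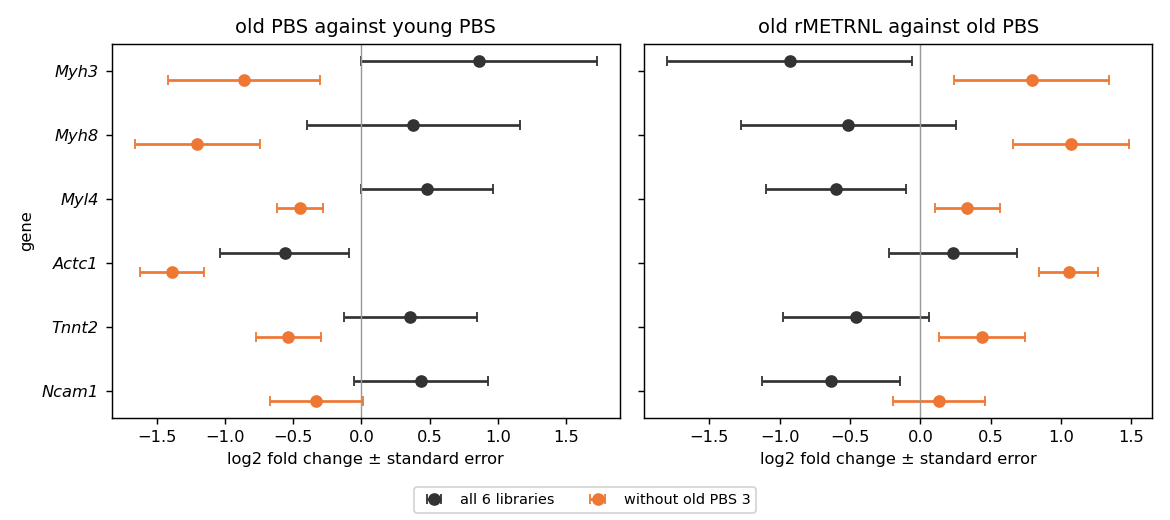
Log2 fold change with its standard error (horizontal axis) of each gene (vertical axis) in the 2 comparisons with old PBS, from all 6 libraries and without old PBS 3. Leaving out that library carries Myh3 from 0.86 to -0.86 in the left panel and from -0.93 to 0.79 in the right panel, and Actc1 changes size but not sign.

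Old rMETRNL and young PBS, which differ in age and in the protein, were close. The log2 fold change of old rMETRNL from young PBS was -0.06 ± 0.30 for Myh3, -0.13 ± 0.24 for Myh8, -0.11 ± 0.18 for Myl4, -0.09 ± 0.24 for Tnnt2 and -0.19 ± 0.25 for Ncam1. Each was smaller than its error. Actc1 differed by -0.33 ± 0.14, from 1053 ± 147 CPM in young PBS to 840 ± 36.2 CPM in old rMETRNL (SD, n = 3 each), and it was the 1 gene of 6 whose groups did not overlap, as held for 6.87% of all genes. By edgeR 0 of the 6 passed (0.0% of 15396 genes, with 371 genes at an unadjusted p under 0.05) and by DESeq2 also 0 (0.0%, with 355 genes), with 1 of the 6 at an unadjusted p under 0.05 by each tool. The sign held for Actc1 whichever library was left out, and changed for each of the other 5 when 1 or another library was left out.

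Beside their adult counterparts, the developmental isoforms were a small part of each family. Within a library, a family share depends on no scaling between libraries. It was computed from reads per kilobase of the transcript with the longest coding sequence. Myh3 and Myh8 together made up 1.28%, 2.07% and 2.18% of Myh1, Myh2, Myh3, Myh4, Myh7 and Myh8 in young PBS. They made up 1.08%, 8.76% and 0.379% in old PBS 2, 3 and 4, and 1.44%, 2.501% and 1.51% in old rMETRNL. Adult heavy chains made up the rest of the family in every library. The 95% Wilson interval of a share of reads was within 0.0902 percentage points on either side in all 4 families, which covers counting error only.

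Actc1 made up a larger part of its family than the developmental heavy chains did in every library but old PBS 3, with 3.53% to 4.01% of Actc1 and Acta1 in young PBS and 3.12% to 3.48% in old rMETRNL. In old PBS 2, 3 and 4 it made up 1.99%, 6.201% and 1.08%. Myl4 made up 1.06% to 1.78% of Myl1 and Myl4 in young PBS, 1.32%, 5.02% and 0.838% in old PBS 2, 3 and 4, and 0.998% to 1.73% in old rMETRNL. Tnnt2 made up 0.307% to 0.620% of the troponin T genes Tnnt1, Tnnt2 and Tnnt3 in young PBS, 0.338%, 1.61% and 0.155% in old PBS, and 0.291% to 0.597% in old rMETRNL. In all 4 families old PBS 3 had the highest share of the 9 libraries and old PBS 4 the lowest. The log2 ratio of developmental to adult reads had an SD of 2.37 over the old PBS libraries for the heavy chains, while young PBS had 0.436 and old rMETRNL 0.450. Group means of that heavy chain ratio were -5.98 in old PBS, -5.77 in young PBS and -5.80 in old rMETRNL, closer together than the SD of any group. For actin they were -5.35 (SD 1.32), -4.665 (SD 0.097) and -4.87 (SD 0.082) in the same order. There young PBS and old rMETRNL lay further apart than the SD of either. For the light chains the means were -5.785 (SD 1.38), -6.12 (SD 0.385) and -6.23 (SD 0.40), and for troponin T -7.82, -7.80 and -7.84.

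**Figure D4:**
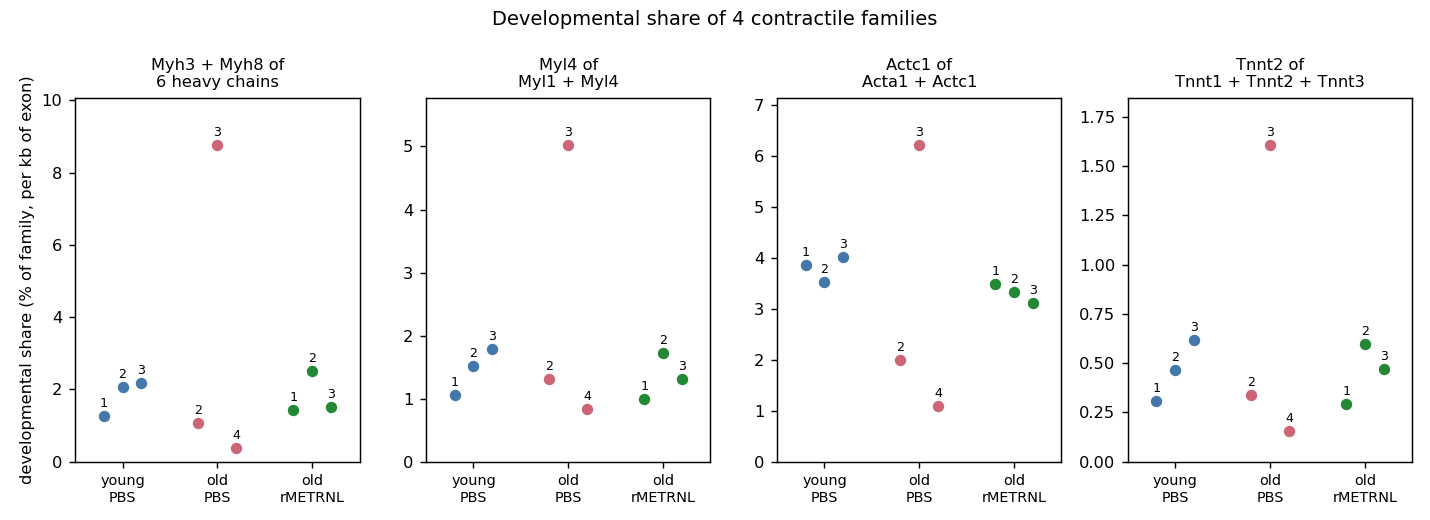
Developmental share of 4 contractile families in percent of reads per kilobase (vertical axes from 0, 1 scale per panel) for each library of the 3 groups, with replicate numbers beside the points. Old PBS 3 tops every panel, at 8.76%, 5.02%, 6.201% and 1.61% from left to right, and old PBS 4 is the lowest in each.

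The adult heavy chains did not all give way where Myh3 and Myh8 were high. Myh4, the fastest fibre myosin, stood at 14095 CPM in old PBS 3 against 42399 CPM in old PBS 2 and 36126 CPM in old PBS 4, and at 18078 to 29411 CPM elsewhere. Myh1, another fast myosin, stood at 16366 CPM in old PBS 3, inside the 13511 to 23947 CPM of young PBS and old rMETRNL, and at 9617.5 CPM in old PBS 4. Myh2 ran from 538 to 1497 CPM and slow Myh7 from 0.790 to 35.6 CPM over the 9 libraries without following either end. Myl1, the adult alkali light chain, was at 8303 CPM in old PBS 3 and 12858 CPM in old PBS 4. Tnnt3, the fast troponin T, was at 8320 CPM in old PBS 3 and 19751 CPM in old PBS 4, the lowest and the highest of all libraries. Tnnt1, the slow troponin T, followed Tnnt2 instead, with 44.2, 157.5 and 26.2 CPM in old PBS 2, 3 and 4.

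The balance of the embryonic and the perinatal heavy chain also varied. Per kilobase, Myh8 exceeded Myh3 by 1.94, 1.90 and 2.06 times in young PBS. It exceeded Myh3 by 1.42, 1.37 and 2.18 times in old PBS 2, 3 and 4, and by 2.95, 1.68 and 1.55 times in old rMETRNL. These values used transcripts of 6149 bases for Myh8 and 6031 for Myh3. The union of all exons holds 11772 and 6057 bases and would lower every ratio by the same factor. That Myh8 exceeded Myh3 thus depends on the length used, and the order of the libraries does not. The ratio was even in young PBS and was lowest in old PBS 3, where both transcripts were highest. The highest ratio was that of old rMETRNL 1, a library in which Myh3 was low and Myh8 was in the common range.

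Other genes of differentiating myoblasts and new fibres were followed through a list of 20, among them the fusion genes Mymk and Mymx, the differentiation factor Myog and the fetal receptor subunit Chrng. The list also held Pax7, Myf5 and Cav3, which are not particular to new fibres. All 20 were higher in old PBS 3 than in old PBS 4, by a median of 1.97 on the log2 scale, and 15 of them by more than 1. The median was 2.20 for the 6 genes and 0.04 for 15689 genes compared. Of those 15689 genes, 8141 were higher and 7548 lower in old PBS 3, and 11.6% were higher by more than 1. The 6 genes were chosen on these levels. Because the lists were written with earlier results of these data known, nothing is read from these differences. Chrng held 10.04, 30.1 and 4.47 CPM in old PBS 2, 3 and 4, and Mymk held 20.2, 52.3 and 10.01 CPM. Myl6b, a light chain of embryonic and slow muscle, held 18.1, 82.0 and 13.3 CPM. In young PBS and old rMETRNL together, Chrng ran from 5.25 to 14.0 CPM, Mymk from 11.4 to 23.9 CPM and Myl6b from 19.7 to 27.6 CPM, so old PBS 3 stood above all of them in each case.

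Of the 20 adult fibre genes, 14 were lower in old PBS 3 than in old PBS 4, where 7548 of all 15689 genes were. The list median was -0.85 on the log2 scale, and nothing is read from it for the same reason. The 6 that were higher were Tnni1, Tnnc1, Tnnt1, Myh7, Myh1 and Myh2. Tnni1, Tnnc1 and Tnnt1 encode the slow troponins, which new fibres also make, and they were higher by 2.91, 2.60 and 2.59. Genes of cell division were lowest in old PBS 4 but not highest in old PBS 3. The summed level of 6 of them was 13.7 CPM in old PBS 4, 46.9 CPM in old PBS 2 and 65.1 CPM in old PBS 3, where young PBS ran from 52.3 to 89.0 CPM and old rMETRNL from 62.9 to 80.6 CPM. Summed markers of fibro-adipogenic cells ran from 2214 to 3233 CPM in old PBS, from 3725 to 5384 CPM in young PBS and from 3464 to 5305 CPM in old rMETRNL. Without the collagen gene Col1a1 the other 5 overlapped between old PBS, at 1119 to 1550 CPM, and both young PBS, at 1248 to 1542 CPM, and old rMETRNL, at 1392 to 1940 CPM. Summed markers of macrophages ran from 997 to 1304 CPM in old PBS, from 1267 to 1546 CPM in young PBS and from 1366 to 1677 CPM in old rMETRNL. Most of that sum was Lyz2, at 728 to 1278 CPM. Between old and young PBS, Lyz2 and Cd68 did not overlap, whereas Adgre1, Csf1r, Itgam and Ptprc did. Smooth muscle markers summed to 514 to 672 CPM in old PBS, 570 to 655 CPM in young PBS and 586 to 664 CPM in old rMETRNL. Rgs5 made up most of this, at 312 to 481 CPM. The part of other cell types in the levels of the 6 genes was not tested.

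**Figure D5:**
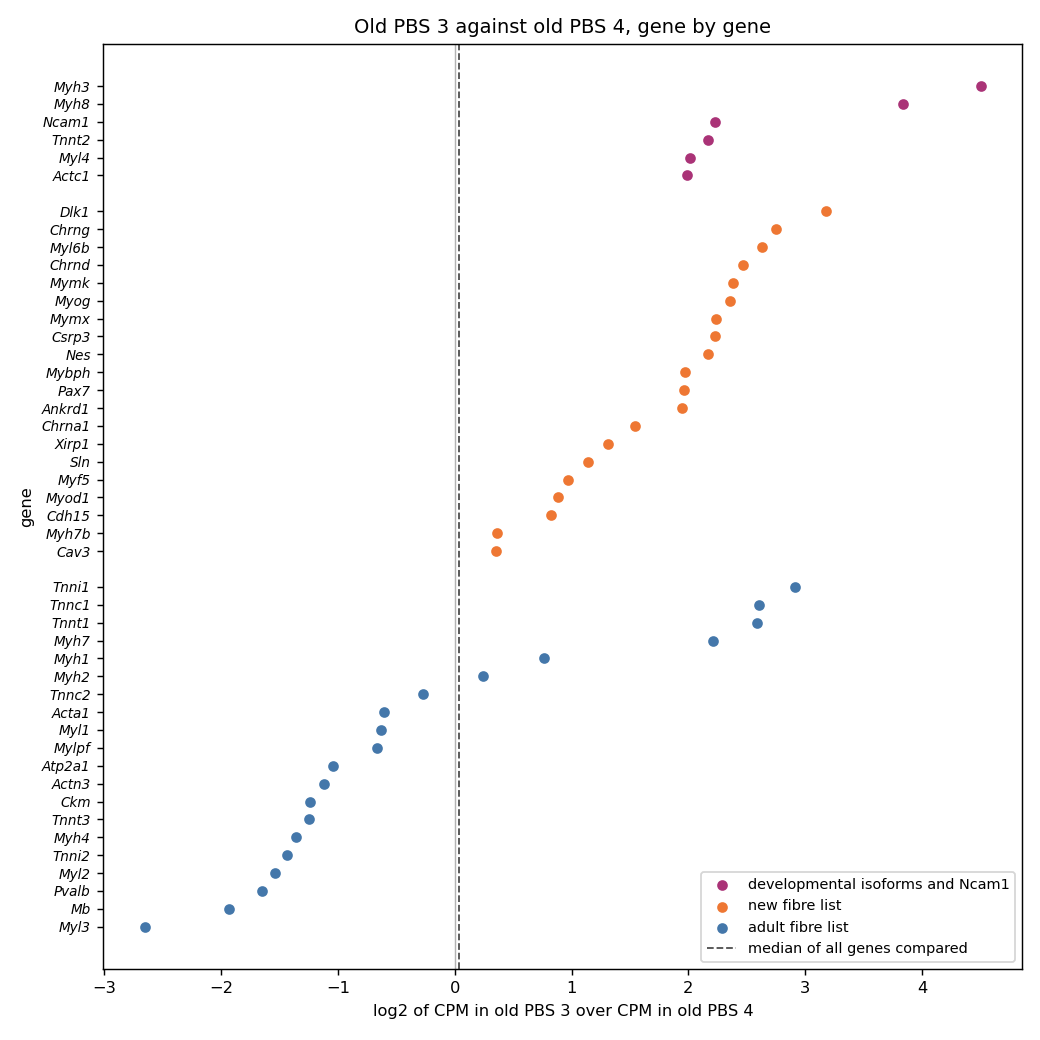
Log2 of the CPM in old PBS 3 over that in old PBS 4 (horizontal axis) for the 6 genes, 20 new fibre genes and 20 adult fibre genes (vertical axis, 1 row per gene), with the median of 15689 genes at 0.04 as a dashed line. The 6 genes lie between 1.99 and 4.50, all new fibre genes lie right of 0, and the adult genes run from -2.65 for Myl3 to 2.91 for Tnni1.

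Between groups, 0 genes of either list passed by edgeR with all libraries. Of all genes, 0.0643%, 0.108% and 0.0% passed in the comparisons below, in their order. At an unadjusted p under 0.05 there were 920, 1266 and 371 genes. In old against young PBS 0 of 20 new fibre genes and 0 of 20 adult genes passed (1 and 0 at an unadjusted p under 0.05), with median log2 fold changes of 0.08 and 0.11 beside 0.01 for all genes. The largest values were -1.77 ± 0.71 for Dlk1, a gene of myoblasts and stromal cells (adjusted p = 0.772), and 1.01 ± 1.18 for Myh7 (adjusted p = 0.994). In old rMETRNL against old PBS 0 and 0 passed (1 and 0 unadjusted), with medians of -0.05 and -0.20 beside -0.01 for all genes. Dlk1 stood highest with 2.12 ± 0.69 (adjusted p = 0.424), followed by Myog with 0.88 ± 0.50 (adjusted p = 0.691), and among adult genes Tnnc1 had -0.76 ± 0.62 and Mb -0.73 ± 0.43 (adjusted p = 0.775 and 0.705). In old rMETRNL against young PBS 0 and 0 passed (2 and 0 unadjusted), and the largest values were 0.50 ± 0.24 for Mymx and 1.004 ± 0.977 for Myh7. By DESeq2 0 genes of either list passed in any comparison, with 0 to 3 at an unadjusted p under 0.05. Of all genes, 1.29%, 1.92% and 0.0% passed by DESeq2.

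Without old PBS 3, a few list genes passed by edgeR, and those of the new fibre list moved the way the 6 genes did. Against young PBS, Myog fell by 1.44 ± 0.24 (adjusted p = 0.0273), Csrp3 by 1.73 ± 0.17 (adjusted p = 0.00446) and Dlk1 by 2.92 ± 0.59 (adjusted p = 0.0452) on the log2 scale in old PBS, 3 of 20 where 2.52% of all genes passed, while Myl3, a slow light chain, rose by 1.16 ± 0.20 (adjusted p = 0.0320). In old rMETRNL against old PBS, Myog rose by 1.82 ± 0.26, Csrp3 by 1.46 ± 0.29, Dlk1 by 3.27 ± 0.53 and Mymx by 1.44 ± 0.36, 4 of 20 where 9.76% of all genes passed (adjusted p = 0.00455, 0.0170, 0.00799 and 0.0347), while Mb, the oxygen store of adult fibres, fell by 1.11 ± 0.22 (adjusted p = 0.0151). The old PBS arm of these fits held 2 libraries, and of the fits that left out each library in turn these are described because old PBS 3 stood apart in related genes, so the calls are not independent evidence. Median log2 fold changes of the new fibre list were -0.44 and 0.41, beside -0.01 and 0.02 for all genes.

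The 6 genes rose and fell together to unequal degrees. Over the 9 libraries, Pearson's r between pairs of log2 CPM ran from 0.526 for Actc1 and Ncam1 to 0.964 for Myh3 and Myh8, with a median of 0.855 over 15 pairs. Spearman's rho ran from 0.550 to 0.950 with a median of 0.833. With old PBS 3 and old PBS 4 left out, r over 7 libraries ran from -0.214 to 0.917 with a median of 0.681. Myl4 and Tnnt2 kept 0.917 there, and Myh3 and Tnnt2 kept 0.898. Actc1 had the lowest values, -0.051 to Myh3, 0.337 to Myh8, 0.366 to Myl4, 0.101 to Tnnt2 and -0.214 to Ncam1. All points share libraries and groups, so these values are descriptive.

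Among 9224 other genes with at least 10 CPM on average, 98 genes, or 1.06%, had an r of at least 0.9 with the mean standardized profile of the 6. The 5 most like it were Tubb6 (r = 0.986), Tnni1 (0.984), Arhgap24 (0.981), Ccdc134 (0.980) and Npnt (0.975). Nearest to Myh3 were Atp2a2, the slow and cardiac calcium pump, with 0.991, Ppfia1 with 0.977 and Rap1gap2 with 0.976. Nearest to Myh8 were Gramd1b with 0.985, Zfp568 with 0.978 and Ppfia4 with 0.974. Nearest to Myl4 were Myl6b with 0.971, Tnni1 with 0.970 and Gatm, an enzyme of creatine synthesis, with 0.963. Tnnt2 was most like Mymk, the fusion protein myomaker, with 0.988, then Zfp280d and Gatm with 0.977 each. Ncam1 was most like Kremen1 with 0.989, the cell cycle inhibitor Cdkn1a with 0.977 and Chrng with 0.977. Actc1 had other neighbours, among them Tnip2 with 0.974 and Rnf122 with 0.951. Without old PBS 3 and old PBS 4 these values were between 0.857 and 0.978.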

How the data were processed

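RNA-seq libraries of 3 young PBS, 3 old PBS and 3 old rMETRNL mice were compared, grouped by the labels. The authors deposited raw counts per Ensembl gene in 1 table. The submitters' processing notes name STAR, featureCounts and mm9, whereas 54495 of the 54532 gene IDs matched GENCODE M21, whose GRCm38 coordinates are printed. Nothing in the labels ties libraries to separate animals, so tests measure the spread between these libraries. Counts were filtered with filterByExpr, scaled by TMM and tested in pairs of groups with edgeR 4.0.16 (quasi-likelihood, Benjamini-Hochberg, 0.05), with DESeq2 1.42.0 as the alternative, in R 4.3.3. CPM are counts per 1000000 of the TMM-scaled library size, and log2 CPM carry a prior count of 2. Standard errors come from the edgeR fits. The script was tested on simulated data.

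The members and lists were chosen with earlier results of these data known. Named are the 6 genes, their adult counterparts, list genes that passed in a comparison (otherwise the largest changes), the 3 genes most like each member by Pearson's r and the 5 most like their mean. Of these, 1 gene is not reported here. Other genes named (such as Chrng, Mymk, Myl6b, Tnni1 and the cell type markers) were picked from the lists after their values were seen. Family shares used the exon length of the transcript with the longest coding sequence, a choice made after seeing the annotation. Promoter letters came from RefSeq.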

Additional observations from a re-analysis of the deposited data

How the results depend on the processing

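Leaving out 1 library at a time, the log2 fold change of old from young PBS ran from -0.86 to 1.39 for Myh3, -1.20 to 0.89 for Myh8, -0.45 to 0.81 for Myl4, -1.38 to -0.22 for Actc1 and -0.54 to 0.72 for Tnnt2. That of old rMETRNL from old PBS ran from -1.47 to 0.79 for Myh3, -1.03 to 1.07 for Myh8, -0.94 to 0.33 for Myl4 and -0.12 to 1.05 for Actc1. The extremes were set by old PBS 3 or old PBS 4. Genes called by edgeR ran from 2 to 401 in old against young PBS, from 3 to 1560 in old rMETRNL against old PBS and from 0 to 1 in old rMETRNL against young PBS, beside 10, 17 and 0 from all libraries. The upper ends came without old PBS 3, and without old rMETRNL 3 in the last comparison. List genes called ran from 0 to 3 and 0 to 4 for the new fibre list and from 0 to 1 for the adult list in the first and second comparison.

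With no filter on low counts edgeR called 354, 740 and 132 genes, among them 1 and 3 of the new fibre list in the comparisons with old PBS and 1 of the adult list in old rMETRNL against young PBS. With at least 10 counts in every library it called 3 and 1 in the comparisons with old PBS, with the fit on all 9 libraries 63 and 71, and DESeq2 called 261 and 362. The cause of these differences was not tested.

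With a replicate block the calls were 11, 65 and 0. Deviations of same-numbered libraries from their group means correlated between -0.316 and 0.412, not above 0.1 for every pair, so the numbers are not taken as pairs. With the block, Ncam1 differed by 0.53 ± 0.21 in old against young PBS and by -0.68 ± 0.34 in old rMETRNL against old PBS. The block changed no sign of the 6 fold changes (Myh3 0.78, -0.82 and -0.13 in the 3 comparisons). Scaling by DESeq2 size factors or library size alone changed no sign either. Shares with the union of all exons (added after seeing the data) were lower, 0.106% in place of 0.464% for Tnnt2, 0.571% in place of 1.45% for Myl4 and 1.29% in place of 1.84% for Myh3 and Myh8 in young PBS. By Spearman's rho 1 of the 5 genes most like the 6 was the same. The lowest count of the 6 genes in a library was 328, so counting error was small beside the spread between libraries.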
